A study of Drosophila melanogaster with 6 samples.

Results

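The 10 genes Tim8, Tim9a, Tim10, Tim13, Tim17b, Tim23, Tom7, Tom20, Tom40 and Tom70 encode parts of the machinery that brings proteins into mitochondria, and they were followed in whole Drosophila larvae that express a Tip60 transgene. A gene was measured where a probe set (the group of short probes that reads one transcript) carried exactly 1 gene symbol in the platform annotation and that symbol was the gene's. By this rule 9 of the 10 genes had a probe set, 1 each, among 18769 probe sets and 11982 genes on the array. The probe set of Tim10 carries the symbol CG42497 as well and is described apart. The study used 6 arrays of the Affymetrix Drosophila Genome 2.0 type, with 2 arrays to a genotype and 3 genotypes, and hybridised each with total RNA from a separate pool of 35 larvae kept for 3 days at 25°C. The deposited values are linear intensities, the brightness of a probe set after normalization by the authors.

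The dTIP60E431Q larvae carried a transgene for Tip60, a histone acetyltransferase, with the E431Q substitution in its catalytic domain. The dTIP60WT larvae carried the unaltered Tip60 transgene, and the Control larvae had a w1118 parent and no transgene. All 3 genotypes, Control included, had a parent with the ubiquitous driver 337-GAL4, which switches the transgene on throughout the animal. Each transgene was represented by 1 inserted line, so that line and transgene cannot be told apart. By the study's description the dTIP60E431Q animals die as larvae, and they were collected before that. Whole larvae hold every tissue, and fewer cells of a type cannot be told apart from less RNA per cell. The pools were matched by age, so a difference in larval stage between genotypes cannot be told apart from the genotype itself.

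Most mitochondrial proteins are made in the cytosol and enter through the translocase of the outer membrane, the TOM complex, where receptors bind the precursor and a channel lets it through. Precursors with a presequence then pass the inner membrane through the TIM23 channel and are pulled in by an ATP-driven motor. Hydrophobic precursors, such as the carriers of the inner membrane, are instead escorted across the space between the membranes by the small Tim chaperones. Every larval tissue depends on this machinery, and muscle is rich in mitochondria.

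The transgene itself was read first. Tip60 had an intensity of 5172 and 5464 on the dTIP60E431Q arrays, 3045 and 2755 on the dTIP60WT arrays, and 30.8 and 29.2 on the Control arrays. Each array matched its label in carrying the transgene or not. Array medians over all probe sets were 51.5 and 51.9 with dTIP60E431Q, 43.8 and 45.2 with dTIP60WT, and 44.4 and 43.6 in Control. Differences were tested with limma, which fits all probe sets together, and a gene passed where its p, adjusted by the Benjamini-Hochberg procedure across the 18769 probe sets, was below 0.05.

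The import genes were lower in dTIP60E431Q larvae than in Control larvae. Of the 9 measured genes, 8 passed the test and were lower, and 0 were higher. Over all probe sets 11.7% passed as lower and 11.9% as higher. The median log2 difference of the 9 genes was -0.95, and that of all genes was 0.03. At least a 2-fold drop was reached by Tim8, Tim9a, Tom20 and Tom40, which is 4 of 9, whereas 5.99% of all probe sets were lower by this measure. Both dTIP60E431Q arrays lay below all 4 other arrays for the same 8 genes, a pattern held by 24.2% of all probe sets. Tim13, the exception, had a dim probe set. The count depended on the arrays: it was 1, with Tim8 alone, when either Control array was left out, 5 without dTIP60E431Q replicate 1, 3 without dTIP60E431Q replicate 2, and 5 without either dTIP60WT array, while every one of the 8 genes stayed lower in each of these fits.

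**Figure D1:**
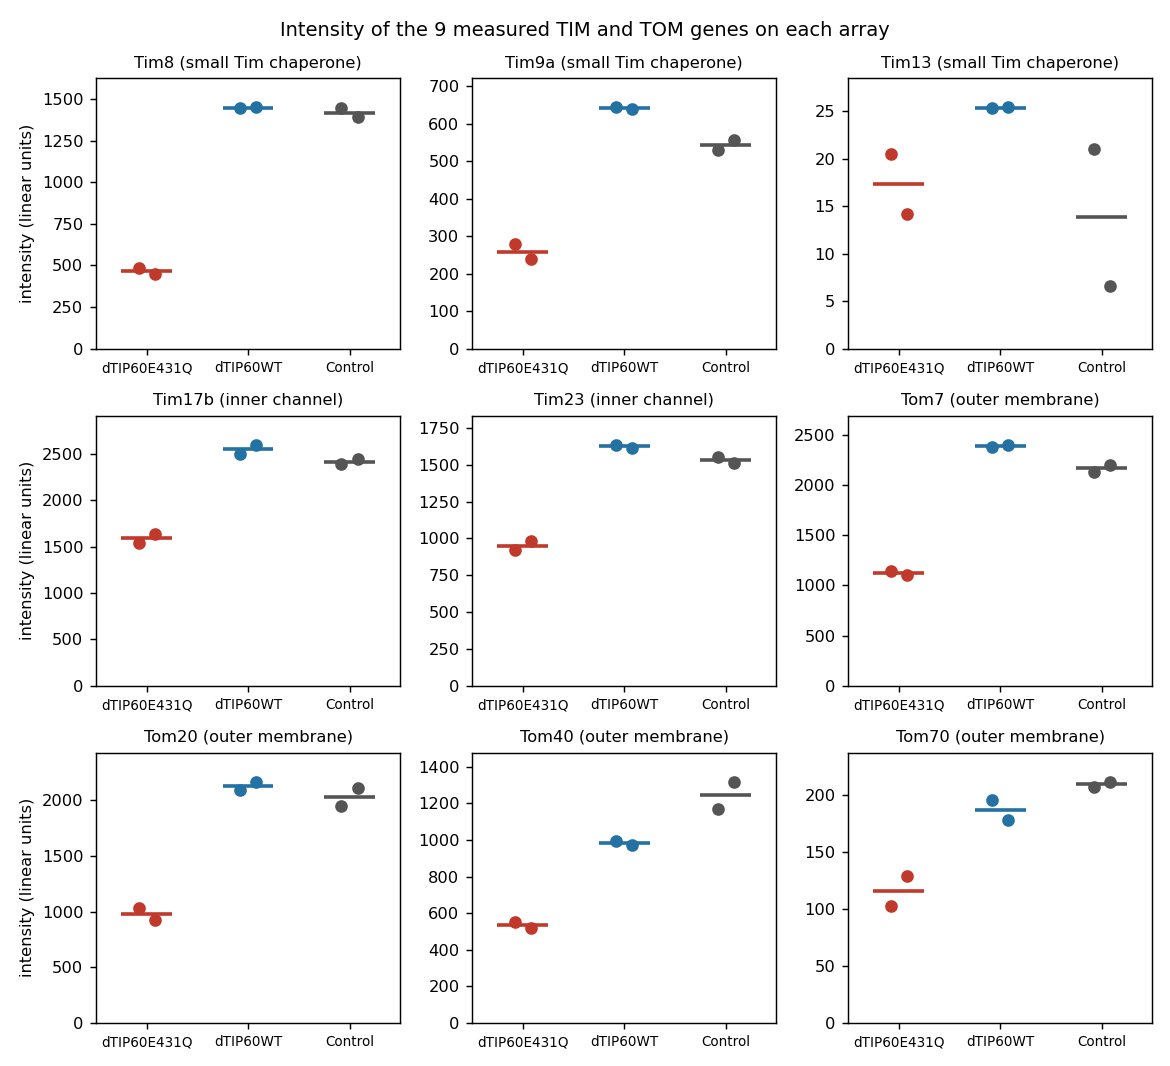
Linear intensity (vertical axes, starting at 0, each with its own scale) of the 9 measured genes in dTIP60E431Q, dTIP60WT and Control larvae, with a point per array and a bar at the mean of 2 arrays. Both dTIP60E431Q points lie below all 4 others for 8 genes, whereas the points of Tim13 overlap.

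Among the small Tim chaperones, Tim8 changed most. Tim8 partners with Tim13 in a chaperone of the intermembrane space. Its intensity was 484 and 451 with dTIP60E431Q, 1448 and 1451 with dTIP60WT, and 1444 and 1393 in Control. The dTIP60E431Q arrays stood far below the others, and the arrays of the other 2 genotypes nearly coincided. The log2 difference of dTIP60E431Q minus Control was -1.60 (95% confidence interval -1.91 to -1.29, SE 0.116, limma adjusted p = 0.00593), a level 3.03-fold lower. Of all probe sets, 3.21% had a difference this low or lower.

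Tim9a encodes a Tim9, which forms with Tim10 the chaperone that carries most hydrophobic precursors. Intensities were 278 and 239.7 with dTIP60E431Q, 644 and 639.6 with dTIP60WT, and 531 and 556 in Control. The 3 genotypes did not overlap, with dTIP60WT the highest. The difference from Control was -1.07 in dTIP60E431Q larvae (-1.43 to -0.72, SE 0.133, limma adjusted p = 0.0114), a level 2.10-fold lower.

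Tim13, the partner of Tim8, gave no measurable difference. Its intensity was 20.5 and 14.2 with dTIP60E431Q, 25.4 on both arrays with dTIP60WT, and 21.0 and 6.6 in Control. The Control arrays spanned the dTIP60E431Q arrays, and all values were low for the array. The log2 difference of dTIP60E431Q minus Control was 0.54, with an interval from -1.06 to 2.14 that spans changes in both directions (SE 0.599, limma adjusted p = 0.573). It turned to -0.30 without Control replicate 2.

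Tim10, the partner of Tim9, shares its probe set with CG42497, and both have the same span in the RefSeq gene table, so the probe set reads either or both. It gave 897 and 846 with dTIP60E431Q, 1647 and 1704 with dTIP60WT, and 1562 and 1687 in Control. The dTIP60E431Q arrays were again the lowest, and the other 4 interleaved. The log2 difference from Control was -0.90 (SE 0.120, limma adjusted p = 0.0133). The span of Tim10 also overlaps that of CG10307, whose own probe set gave a log2 difference of -1.155 and did not pass (limma adjusted p = 0.171). The shared probe set of Tim10 is in no count of the 9 genes.

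The genes of the inner membrane channel had the smallest drops against Control among those that passed. Tim23 forms the core of the presequence translocase. Its intensity was 920.1 and 981 with dTIP60E431Q, 1637 and 1611 with dTIP60WT, and 1549 and 1512 in Control. No dTIP60E431Q array reached the level of any other array. The log2 difference of dTIP60E431Q minus Control was -0.69 (-0.99 to -0.38, SE 0.114, limma adjusted p = 0.0211), a level 1.61-fold lower.

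Tim17b encodes a Tim17, which joins Tim23 in the same channel. The arrays read 1543 and 1636 with dTIP60E431Q, 2498 and 2599 with dTIP60WT, and 2387 and 2438 in Control. Again both dTIP60E431Q arrays were below the other 4. The log2 difference from Control was -0.60 (-0.91 to -0.30, SE 0.115, limma adjusted p = 0.0286), a level 1.52-fold lower, the smallest drop among the 8 genes. With the 4 arrays of this comparison fitted alone, Tim17b and Tim23 no longer passed, with limma adjusted p of 0.0669 and 0.0555.

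All 4 genes of the outer membrane were lower in dTIP60E431Q larvae. Tom40 forms the channel through which nearly all precursors enter. Its intensity was 554 and 520.1 with dTIP60E431Q, 992 and 975 with dTIP60WT, and 1170.4 and 1319 in Control. The 3 genotypes did not overlap, and dTIP60WT lay between the others. The log2 difference of dTIP60E431Q minus Control was -1.21 (-1.55 to -0.87, SE 0.128, limma adjusted p = 0.00883), a level 2.32-fold lower.

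Tom20 encodes the receptor for precursors with a presequence. It read 1029 and 927 with dTIP60E431Q, 2092 and 2168 with dTIP60WT, and 1951 and 2115 in Control. The dTIP60E431Q arrays were apart from the rest, and dTIP60WT and Control overlapped. The log2 difference from Control was -1.06 (-1.40 to -0.72, SE 0.128, limma adjusted p = 0.0110), a level 2.08-fold lower. The span of Tom20 in the RefSeq gene table overlaps that of Gabat, whose own probe set gave a log2 difference of -0.85 and did not pass (limma adjusted p = 0.268).

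Tom7 encodes a small subunit known from yeast to tune the stability of the TOM complex. Its intensity was 1142 and 1104 with dTIP60E431Q, 2381 and 2407 with dTIP60WT, and 2135 and 2204 in Control. The dTIP60E431Q arrays were the lowest and the dTIP60WT arrays the highest. The log2 difference from Control was -0.95 (-1.25 to -0.65, SE 0.112, limma adjusted p = 0.0106), a level 1.93-fold lower.

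Tom70 encodes the receptor for carriers and other hydrophobic precursors. It was read at 102 and 129 with dTIP60E431Q, 196 and 178 with dTIP60WT, and 207 and 212 in Control. The genotypes did not overlap, but the dTIP60E431Q arrays were further apart than for the other genes that passed. The log2 difference of dTIP60E431Q minus Control was -0.87 (-1.30 to -0.43, SE 0.163, limma adjusted p = 0.0273), a level 1.82-fold lower, and adjusted p was 0.0625 in a fit of the 4 arrays alone. The Tom70 probe set is of a kind that can match several transcripts, and its span overlaps CG18788, whose own probe set was higher in dTIP60E431Q larvae (log2 difference 1.15, limma adjusted p = 0.0242).

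Set side by side, the medians of the log2 difference from Control in dTIP60E431Q larvae were -1.07 for the small Tim chaperones, of which 2 of 3 passed, -0.64 for the inner channel, of which 2 of 2 passed, and -1.003 for the outer membrane, of which 4 of 4 passed. The groups hold few genes and no test between them was run. The intervals of single genes give the size of the spread: that of Tim8 ended at -1.29 and those of Tim23 and Tim17b began at -0.99 and -0.91, whereas the intervals of the outer membrane genes overlapped those of the inner channel genes. Tim8 therefore stood apart from the channel genes in its interval, whereas Tim9a (-1.43 to -0.72), Tim13 (-1.06 to 2.14) and the outer membrane genes did not. The overlap of intervals is a description and not a test.

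The dTIP60WT larvae tell whether extra Tip60 with an intact catalytic domain goes along with such a change. No import gene passed against Control: 0 of 9 in limma, 0 at an unadjusted p below 0.05, and 0 in the methods' t-test. The unadjusted limma p was below 0.05 for 1051 of all 18769 probe sets, so 0 of 9 says little about the import genes. Among all probe sets 0% passed as lower and 0.00533%, a single probe set, as higher. The median log2 difference of the 9 genes was 0.08. Both dTIP60WT arrays were above both Control arrays for 6 of the 9 genes (Tim8, Tim9a, Tim13, Tim17b, Tim23 and Tom7), against 16.3% of all probe sets, and below them for 2 (Tom40 and Tom70), again against 16.3%.

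Tom40 had the smallest unadjusted p among the 9 genes in this comparison, 0.0517 in limma. Its dTIP60WT minus Control difference was -0.34 (-0.68 to 0.00376, limma adjusted p = 0.889), with both dTIP60WT arrays lower than both Control arrays. Tim13 had the largest difference and the widest interval, 1.11 (-0.49 to 2.71, limma adjusted p = 1). For Tim9a the difference was 0.24 (-0.11 to 0.60) and for Tom70 -0.17 (-0.60 to 0.27). For Tim8, Tim17b, Tim23, Tom7 and Tom20 the differences ran between 0.03 and 0.14, and the widest of their intervals, that of Tom20, ran from -0.27 to 0.41. The smallest drop that passed with dTIP60E431Q against Control, -0.60, lay outside the intervals of these 5 genes.

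**Figure D2:**
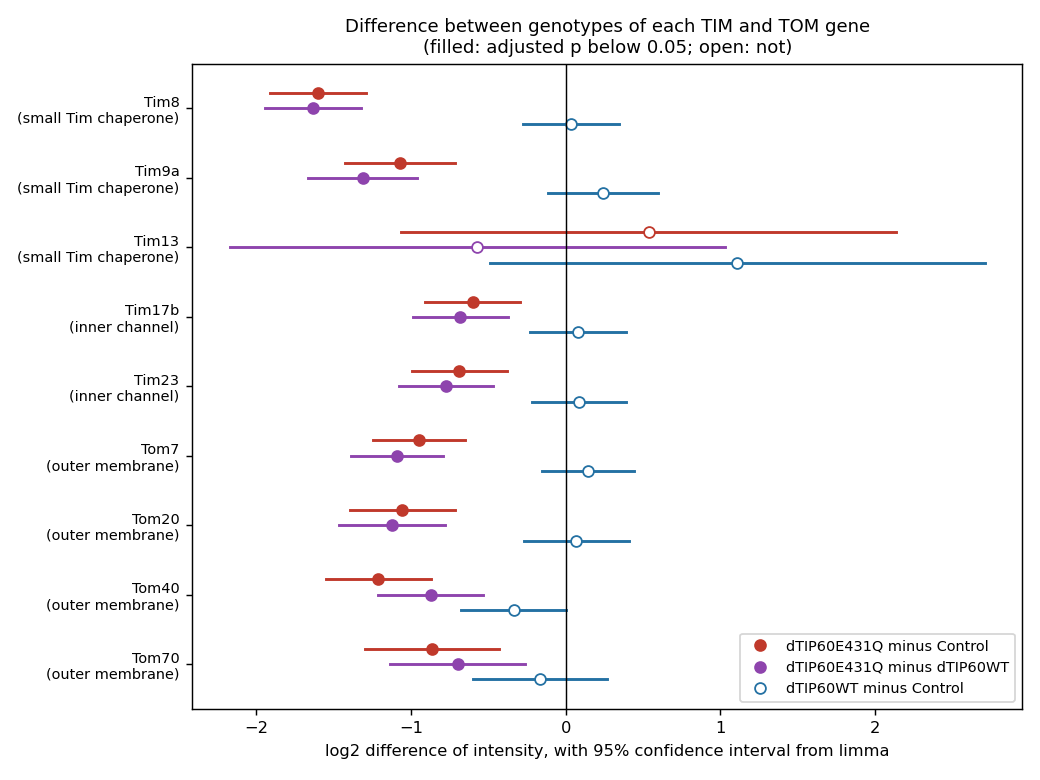
Log2 difference of intensity (horizontal axis) of each gene for dTIP60E431Q minus Control, dTIP60E431Q minus dTIP60WT and dTIP60WT minus Control, with 95% confidence intervals from limma and filled points where adjusted p was below 0.05. Filled points stand to the left of 0 for 8 genes in both comparisons of dTIP60E431Q, and no point is filled for dTIP60WT minus Control.

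Against the dTIP60WT larvae, which share the driver and an expressed Tip60 transgene, 8 of 9 import genes were lower in dTIP60E431Q larvae and 0 were higher. Over all probe sets 11.7% passed as lower and 12.2% as higher in this comparison, and 6.05% were lower by 2-fold or more. It uses the same dTIP60E431Q arrays as the comparison with Control, so the results are not independent. The median log2 difference of the 9 genes was -0.87. At least 2-fold drops were seen for Tim8 (-1.63, limma adjusted p = 0.00549), Tim9a (-1.31, 0.00755), Tom20 (-1.12, 0.00919) and Tom7 (-1.09, 0.00769). Smaller drops were seen for Tom40 (-0.87, 0.0149), Tim23 (-0.77, 0.0154), Tom70 (-0.70, 0.0446) and Tim17b (-0.68, 0.0207). Tim13 gave -0.57 and did not pass (adjusted p = 0.550). The count fell to 1, Tim8, without either dTIP60WT array and to 4 without either dTIP60E431Q array, and was 6 without either Control array.

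The transgene with the substitution was also the brighter, as the Tip60 intensities above show, so dose and substitution cannot be told apart between the 2 transgenes.

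The 8 genes that passed shared the step between genotypes, so their profiles over the 6 arrays were bound to correlate. Pearson's r of log2 intensity between pairs of them ran from 0.873 to 0.996, with a median of 0.978 over 28 pairs. These values do not show whether the genes vary together within a genotype. From dTIP60E431Q replicate 1 to replicate 2, Tim17b, Tim23 and Tom70 rose and the other genes that passed fell. Pools of a genotype were close: the median size of the log2 difference between the 2 pools was 0.102 over the 9 genes with dTIP60E431Q, 0.0237 with dTIP60WT and 0.0518 in Control, against medians of 0.256, 0.233 and 0.227 over all probe sets. The latter medians cover probe sets of every brightness and were not matched to these mostly bright genes. The widest gap between pools was that of Tim13 in Control, 1.67, and among the other 8 genes that of Tom70 with dTIP60E431Q, 0.329.

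Most of these probe sets were bright, which bears on how the counts read. The mean log2 intensity lay at or above the 80th percentile of all probe sets for 7 of the 9 genes, whereas Tom70 lay at percentile 72.2 and Tim13 at percentile 30.1. Among the 3754 probe sets at or above the 80th percentile, 32.7% passed as lower in dTIP60E431Q against Control, 32.5% against dTIP60WT, and 49.1% had both dTIP60E431Q arrays below all others. The median log2 difference from Control of these bright probe sets was -0.16. The 7 bright import genes all passed, and their differences ran from -1.60 to -0.60.

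**Figure D3:**
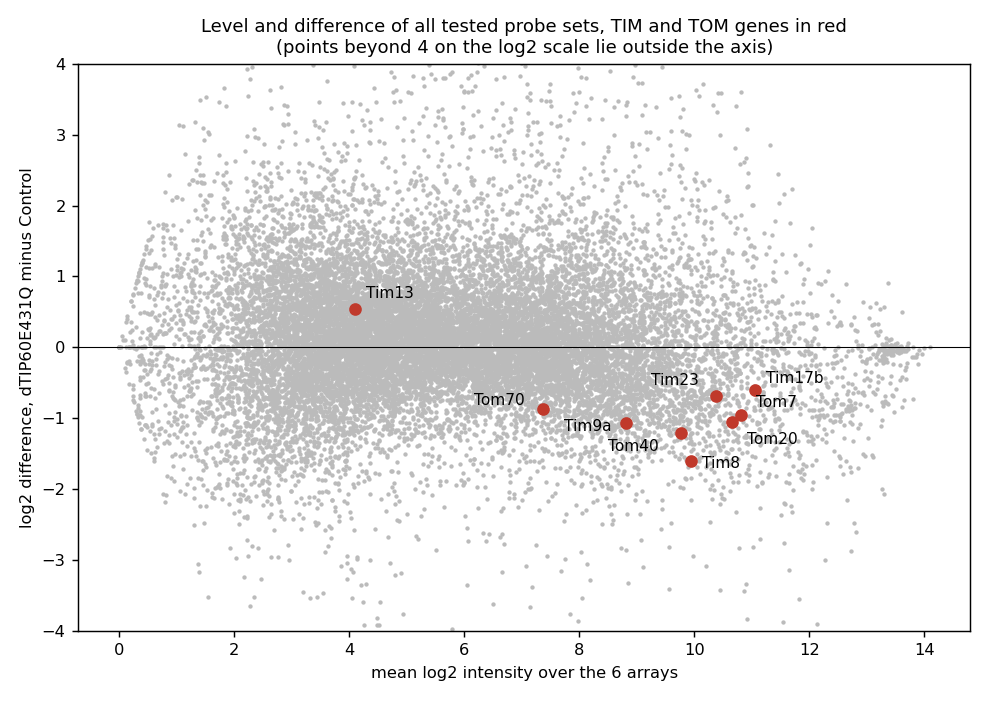
Log2 difference of dTIP60E431Q minus Control (vertical axis) against the mean log2 intensity over the 6 arrays (horizontal axis) for all tested probe sets in grey and the 9 import genes in red. The 8 genes that passed lie between -1.60 and -0.60, most of them at the bright end, and Tim13 lies among the dim probe sets at 0.54.

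The scaling of the arrays moved the size of the differences and not the count. The dTIP60E431Q arrays had the higher medians, and after every array was set to the same median the difference of all probe sets from Control had a median of -0.20 in place of 0.04. The import genes then had a median of -1.18 against Control and -1.09 against dTIP60WT, and 8 of 9 passed as lower in both. Over all probe sets the calls then leaned to the lower side, with 16.9% lower and 8.24% higher against Control and 16.8% lower and 8.91% higher against dTIP60WT. The 8 genes were lower under every scaling run.

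Among other genes listed with the import pathway, more passed as lower than as higher, and some of their probe sets were dim. Of the 30 that were measured, 13 passed as lower and 3 as higher in dTIP60E431Q larvae against Control, with a median log2 difference of -0.49. Over all genes 14.2% passed as lower and 14.2% as higher. The list was drawn widely and also held QIL1, Chchd3 and porin, which are not translocase subunits and were all among the lower. Against dTIP60WT 12 were lower and 2 higher, with a median of -0.43, and no gene of the list passed between dTIP60WT and Control. The 13 translocase genes among them, of 17 listed, had 4 lower and 0 higher with a median of -0.29. The 17 genes of the motor, precursor processing, sorting and assembly, of 21 names listed (OXA1L under both of its names), had 9 lower and 3 higher with a median of -0.52. Of the 3 higher, Hsp60D was dim, at percentile 7.69. CG9393 and Alr did not pass against Control after median scaling (limma adjusted p of 0.0785 and 0.0950), but did against dTIP60WT (0.0318 and 0.0485).

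CG34200, for which the RefSeq gene table gives Tom6 as a synonym, had the smallest p of the list. Its intensity was 294 and 288 with dTIP60E431Q, 932 and 902 with dTIP60WT, and 887 and 889 in Control. The dTIP60E431Q arrays were far below the rest, with a log2 difference from Control of -1.61 (limma adjusted p = 0.00570). Roe1, the nucleotide exchange factor of the motor's Hsp70, read 228 and 249 with dTIP60E431Q, 704 and 645 with dTIP60WT, and 681 and 725 in Control. Its difference from Control was -1.56 (limma adjusted p = 0.00689).

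The gene mge, which encodes the central receptor Tom22, read 630.5 and 536 with dTIP60E431Q, 1602 and 1609.5 with dTIP60WT, and 1558 and 1625 in Control. It was lower than Control by a log2 difference of -1.45 (limma adjusted p = 0.00785). QIL1, a part of the complex that shapes the cristae, read 916 and 926 with dTIP60E431Q, 2206 and 2233 with dTIP60WT, and 2060.1 and 2165 in Control, a difference of -1.20 (limma adjusted p = 0.00785). In all 4 genes both dTIP60E431Q arrays were below the other 4.

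Further members of this list were picked out after their values were seen. Hsc70-5, the Hsp70 of the motor, had a log2 difference from Control of -0.97 and OXA1L, an insertase of the inner membrane, one of -1.26 (limma adjusted p of 0.0119 and 0.00798). Opposite to these, Alr, a sulfhydryl oxidase of the intermembrane space, was higher by 0.65 (limma adjusted p = 0.0313), though it did not pass against Control after median scaling. The paralogues of the import genes were dim and did not pass: Tim17b1 had a difference of 0.30, Tim17b2 one of -0.03, tomboy20 one of 0.17 and tomboy40 one of -0.29.

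The carriers of the inner membrane are known clients of the small Tim chaperones. Of 20 measured genes on the carrier list, from 26 listed, 5 passed as lower and 3 as higher in dTIP60E431Q larvae against Control, with a median log2 difference of -0.19. These are 25.0% and 15.0% of the list, beside 14.2% lower and 14.2% higher over all genes, so the shares were not far from the background. The list also held PMP34, a carrier of peroxisomes (log2 difference -0.71, limma adjusted p = 0.0405), and without it, a choice made after the values were seen, 4 of 19 were lower and 3 higher, with a median of -0.15. Mpcp1, a phosphate carrier, had the largest drop of the list, with intensities of 376 and 416 with dTIP60E431Q, 2251 and 2135 with dTIP60WT, and 2179.5 and 2187 in Control. Its dTIP60E431Q arrays were well below all others (log2 difference -2.46, limma adjusted p = 0.00550). The carnitine carrier colt gave -1.47 (limma adjusted p = 0.00785) and aralar1, an aspartate and glutamate carrier, gave -1.12 (limma adjusted p = 0.0100). MME1, a magnesium exporter, was higher by 0.89 (limma adjusted p = 0.0211).

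Carriers of the same kind differed from each other. Mpcp2, the other phosphate carrier, gave -0.23 and did not pass (limma adjusted p = 0.234). Of the adenine nucleotide carriers, sesB was lower by a log2 difference of -0.50 and Ant2 higher by 1.40 (limma adjusted p of 0.0426 and 0.0239). These 3 genes were picked out after their values were seen.

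Beside the import genes stand other nuclear genes for mitochondrial proteins. Of 69 mitochondrial ribosomal proteins, 56 were lower and 0 higher in dTIP60E431Q larvae against Control, with a median log2 difference of -1.05. Of 73 genes listed by symbol for the respiratory chain and ATP synthase, 51 were lower and 0 higher, with a median of -0.95, the same as that of the import genes. Drawn by the start of the symbol, that list also holds genes other than the standard subunits, such as Sdhaf3, SdhAL and ATPsynbetaL. The cytosolic ribosomal proteins, by contrast, had 0 of 34 lower and 1 higher, with a median of -0.05. The drop of the import genes was thus of the size seen in these 2 mitochondrial lists. The carriers, with a median of -0.19, and the other translocase genes, with -0.29, had smaller median drops, but both lists hold dim probe sets. Tim17a1, Tim17a2, Tim17b1, Tim17b2, ttm2, ttm3, tomboy20 and tomboy40 lay between percentiles 5.365 and 44.65. The remaining translocase genes lay at percentile 83.4 or above and were singled out after their values were seen. They gave -1.61 (CG34200), -1.45 (mge), -1.08 (blp), -0.79 (CG32267) and -0.47 (ttm50). Of these, ttm50 did not pass (limma adjusted p = 0.0735). Nothing particular to import was tested.

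**Figure D4:**
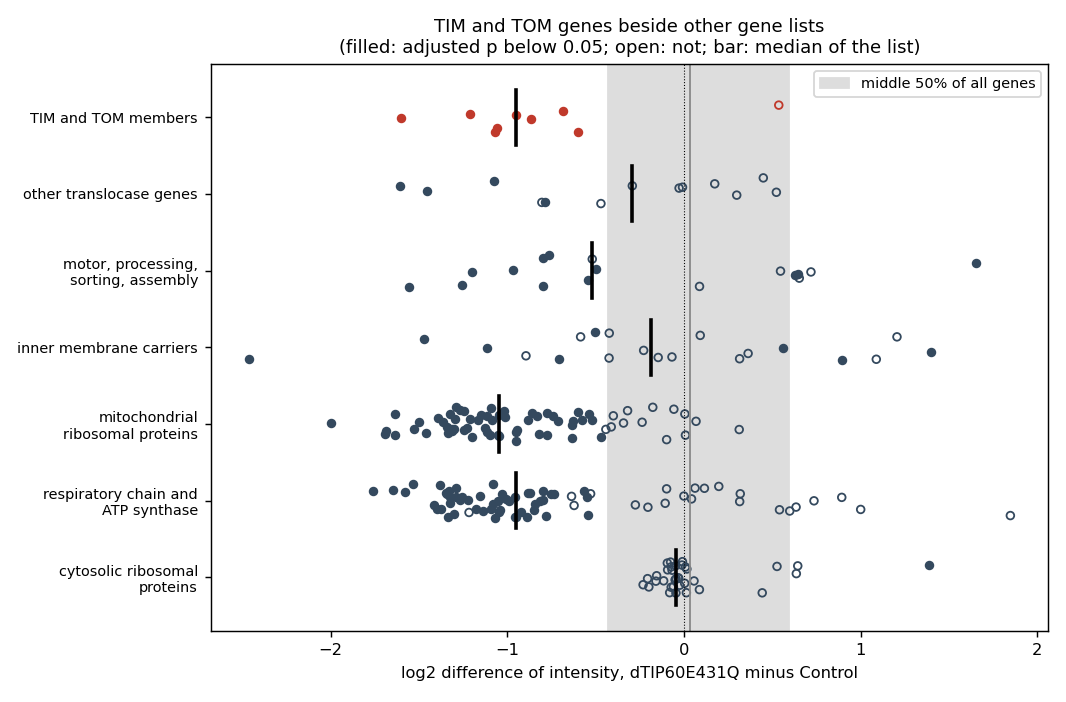
Log2 difference of dTIP60E431Q minus Control (horizontal axis) of each measured gene in 7 lists (the carriers with the peroxisomal PMP34), with filled points at adjusted p below 0.05, a black bar at the median of the list and a grey band over the middle 50% of all genes. The import genes have a median of -0.95, close to those of the mitochondrial ribosomal proteins and the respiratory chain, whereas cytosolic ribosomal proteins centre at -0.05.

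Other genes had a similar profile over the arrays. Among 7710 candidates, LSm3, an RNA-binding protein of the spliceosome, was the most like the mean of the import genes, with a root mean square difference of 0.0282 on the log2 scale over 6 arrays. It was followed by strat, CG14286, CG2021 and Sf3b5, with 0.0374 to 0.0437. With the dim Tim13 left out of the mean, a choice made after its values were seen, the nearest were ND-B18 and ATPsyndelta, subunits of complex I and of ATP synthase, then T3dh, Got2 and CG14823, with 0.0214 to 0.0279.

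Some markers of whole tissues differed between genotypes as well, and others did not. Summed intensity of 6 measured muscle markers of 9 listed, 3 of them lower against Control, was 26034 and 27476 with dTIP60E431Q, 40238 and 36381 with dTIP60WT, and 38550.0 and 39565 in Control. For 3 measured fat body markers of 6 listed, Lsp2, Fbp1 and Fbp2, 2 of them lower, the sum was 169 and 161 with dTIP60E431Q, 20209 and 20166 with dTIP60WT, and 26054 and 18982 in Control. Fat body sums were thus far below those of the other genotypes in dTIP60E431Q larvae, mostly through Lsp2 and Fbp2. Fbp1 did not separate by genotype, with 3.32 and 6.42 for dTIP60E431Q, 5.01 and 1015 for dTIP60WT, and 1329 and 7.09 for Control.

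The 5 measured midgut markers of 6 listed, 2 of them higher, summed to 31649 and 30986 with dTIP60E431Q, 23527 and 25876 with dTIP60WT, and 23532 and 26367 in Control. The 4 measured neuronal markers of 5 listed, 1 of them higher, summed to 567 and 556 with dTIP60E431Q, 476 and 387 with dTIP60WT, and 459 and 445 in Control. Appl was the higher marker (log2 difference 1.20), whereas elav (0.01), brp (-0.15) and nSyb (-1.535) did not pass against Control. The 4 salivary glue genes, made by late larvae, summed to 223 and 187 with dTIP60E431Q, 172 and 1356 with dTIP60WT, and 1080 and 160 in Control. In these sums dTIP60WT replicate 2 and Control replicate 1 differed from their replicates. The same arrays had the high Fbp1 values. The part of tissue makeup or of larval stage in the drop of the import genes was not tested.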

How the data were processed

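RNA was taken from pools of 35 whole larvae, 1 pool per array, which the labels call biological replicates. Per the paper's methods the authors used GCOS to quantitate and dChip to normalize and model each probe set; the baseline array and probe model are not given in the sources used here. The deposited values are linear intensities from 0.69 to 18115, with 1.37% at exactly 1, and were log2-transformed without a pseudocount or a filter. Of 18952 probe sets, 183 Affymetrix controls were left out; 13647 of the rest carry 1 symbol, 402 several and 4720 none. A gene with several probe sets was read by the brightest.

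limma 3.58.1 (R 4.3.3, statmod 1.5.0) fitted 1 mean per genotype to all 6 arrays (residual degrees of freedom 3, prior 1.43, median residual SD 0.241) in place of dChip's t-test, with Benjamini-Hochberg adjustment, and was checked on simulated data. The number of arrays limits the precision. Alternatives were a replicate block, a 2-group fit, trend and robust eBayes, median scaling, quantile normalization, a floor, a pseudocount of 16, a filter below the 40th percentile, probe-set averaging, each array left out, a 2-fold threshold and the methods' t-test.

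The text names the members, Tip60, the 4 genes of smallest p in each of the import and carrier lists and the 5 genes most like the members; others are said to be chosen after seeing values. Members and lists were chosen with earlier results of these data known. Gene names came from the platform annotation and a RefSeq gene table. No sequences were used, and coordinates served only to find overlapping gene spans. Same-numbered arrays were checked for pairing. Plots used matplotlib 3.10.9.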

Additional observations from a re-analysis of the deposited data

How the results depend on the processing

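The 8 genes that passed kept their direction against Control and against dTIP60WT under every alternative fit, and Tim8 passed in all of its 14 alternatives, with limma adjusted p up to 0.0485 against Control and up to 0.0498 against dTIP60WT. The count of genes that passed against Control was 8; it was 4 with a fold of at least 2 as well, 5 in the 2-group fit, 0 with the methods' t-test after Benjamini-Hochberg, 3 with that test at the study's unadjusted threshold, and 1 to 5 with an array left out. Against dTIP60WT it was 8, then 4 with the fold, 6 in the 2-group fit, 0 and 4 with the t-test, and 1 to 6 with an array left out. An array left out leaves a genotype with a single array, assumed to vary like the others, and fewer degrees of freedom.

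With the replicate number as a block, 5 genes passed against Control and 6 against dTIP60WT; Tim17b (adjusted p = 0.0688), Tim23 (0.0590) and Tom70 (0.0643) were lost against Control, and Tim17b (0.0555) and Tom70 (0.0910) against dTIP60WT. Same-numbered arrays did not deviate together over all probe sets (correlations of -0.0125, -0.0116 and -0.00735). This gave no sign that the numbers pair the pools. It cannot exclude a pairing, since dim probe sets weigh in these correlations and each genotype has few arrays. The block costs degrees of freedom.

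Median scaling gave medians against Control of -1.18 for all 9 genes, -0.88 for the inner channel and -1.24 for the outer membrane, and against dTIP60WT of -1.09, -0.94 and -1.20. Quantile normalization gave -0.95 for all genes and -1.03 for the outer membrane against dTIP60WT. The filter on dim probe sets removed Tim13 and gave -1.34 for the small Tim chaperones against Control and -0.98 for all genes against dTIP60WT. With an array left out the median ranged from -0.69 to -0.60 for the inner channel and from -1.05 to -0.96 for the outer membrane against Control, and from -0.77 to -0.68 for the inner channel against dTIP60WT. Tim13 against Control turned to -0.30 without Control replicate 2 and ranged up to 1.37 with other arrays left out.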
